A study of Mus musculus with 39 samples.

Results

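Cells carrying 1 fluorescent colour were compared with cells carrying both colours in 7 embryos at embryonic day (E) 16. The comparison used 21 of the 39 RNA-seq libraries of the series, which are all E16 libraries: 7 of red cells (tdT+), 7 of green cells (GFP+) and 7 of yellow cells (GFP+/tdT+). Within each replicate number the mean of red and green was set against yellow, gene by gene. The libraries were pools of 200 to 400 cells sorted from the neocortex of mouse embryos with MADM-7 cassettes (Mosaic Analysis with Double Markers on chromosome 7) and Emx1-Cre, in a mixed C57BL/6J, CD1 background. The labels give the strain as CD1. Control and test cells came from the same animals, so yellow cells had the same cassettes and the same Cre as red and green cells. Red and green cells carry 2 copies of chromosome 7 from 1 parent, in opposite parental directions, and yellow cells carry 1 copy from each parent. The labels do not give the direction for a colour.

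MADM places split parts of both fluorescent markers on homologous chromosomes, and Cre-driven exchange between the homologues restores them. Singly coloured cells arise when the exchange takes place in a dividing cell after DNA replication, so that the daughters inherit different colours. Yellow cells arise from the same exchange with the other segregation of chromatids, and also in cells that have not replicated their DNA or no longer divide. In the developing cortex radial glia are the dividing stem cells of the ventricular wall. They produce intermediate progenitors, which divide again and give rise to the glutamatergic neurons of the deep and then the upper layers.

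Sequencing depth at E16 ran from 472924 to 4728869 gene counts (median 3307457), so that the floor of 3 counts corresponded to 0.634 to 6.34 CPM (counts scaled to a common library total). Interpretation of low genes is limited by this floor, and reads without molecular identifiers make it a counting limit only. None of 5 library measures (gene counts, genes detected, uniquely aligned share, share without a feature, mitochondrially encoded share) differed between singly coloured and yellow cells by an exact two-sided sign-flip test over 7 embryos (lowest adjusted p 0.922, smallest raw p possible 0.0156). There were 4 libraries that stood apart from the rest. Their median Spearman correlation with the other 20 libraries was 0.527 (red replicate 5), 0.569 (red replicate 6), 0.634 (green replicate 7) and 0.453 (yellow replicate 7), whereas the other 17 libraries were at 0.739 to 0.787. The same 4 had the fewest genes detected, 7858 to 10194, against 11049 to 13121. The study left out 3 of them. They lie in replicates 5, 6 and 7, and the counts and medians of the progenitor, cell-cycle and neuron lists are therefore also given without these 4 libraries, as are the named genes whose value then changed most. Without them replicate 7 keeps red alone and adds nothing to the comparison within embryos. Xist and Y-linked counts gave the same larger signal in the 3 libraries of each of 7 embryos, and 2 libraries (yellow replicate 5 and green replicate 7) had at least 50 counts of both.

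Markers of the labelled tissue were present. Neurod6, a marker of cortical glutamatergic neurons, was detected in 21 of 21 libraries (345 to 1480 CPM), and Emx1 itself in 20 libraries at up to 43.5 CPM. Markers of other cell types were low. Of 17 interneuron markers 2 passed the filter on low counts, and Slc32a1 and Dlx6 were at 0 throughout. The summed interneuron markers were at 0 to 33.2 CPM in red, 2.42 to 61.3 CPM in green and 0 to 45.3 CPM in yellow. Summed over 12 microglial markers the ranges were 0 to 29.4, 0.249 to 28.0 and 0 to 55.4 CPM, with C1qa, P2ry12 and Ptprc at 0 in every library. Over 13 endothelial and mural markers they were 0 to 69.7, 0 to 8.38 and 0 to 37.9 CPM. Over 8 oligodendrocyte precursor markers, of which Sox10 was at 0, they were 0.254 to 578, 0.279 to 4.60 and 0 to 19.6 CPM, and the highest value came from Olig1 in 1 red library. Over 10 markers of meninges and choroid plexus they were 0.478 to 40.1, 2.20 to 123 and 0 to 316 CPM. Blood markers had medians of 10.3, 2.34 and 10.5 CPM but reached 6870 CPM in 1 red and 1480 CPM in 1 yellow library. The part of these cells in any result was not tested.

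No single gene passed the test between singly coloured and yellow cells, whereas genes of radial glia and of the cell cycle were mostly measured higher in the singly coloured cells, and genes of deep layer neurons mostly lower. Of 10794 genes with a mean count of at least 10, edgeR's quasi-likelihood test with the embryo as a block called 0 (0%) at an adjusted p under 0.05. At an unadjusted p under 0.05 there were 107 genes measured higher in singly coloured cells (0.991% of those tested) and 150 lower (1.39%). The DESeq2 Wald test with the same design called 82 genes, 27 higher and 55 lower. In 53 of these 82 the gene had counts in under 11 of the 21 libraries, 50 had a fitted log2 difference beyond 10 in size, and 4 belong to the gene lists used here (Vim, Dbi, Cdk6 and Eda2r). Over all genes 50.2% had a fitted log2 fold change above 0, and the median was 0.0017. In 4.88% of genes the mean of red and green exceeded yellow in at least 6 of 7 embryos, and in 7.21% it was below yellow in at least 6. The members of each gene list are read against these shares. In pools of cells, fewer cells of a type and less RNA per cell cannot be told apart.

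Radial glial genes stood highest of the progenitor and neuron lists. Of 30 genes listed 24 passed the filter, 22 of these had a log2 fold change above 0 (91.7%, against 50.2% of all genes), and their median was 0.98. Summed over the 24 genes, expression was 2463 to 5690 CPM in red (median 3248), 2126 to 5570 CPM in green (median 3571) and 1593 to 3075 CPM in yellow (median 1896). Red and green were both above the yellow library of the same embryo in 7 of 7 embryos, by a ratio of 1.40 to 2.69 (median 1.66). The groups overlapped only when embryos were ignored. In 12 of the 24 genes (against 4.88% of all genes) singly coloured cells were higher in at least 6 of 7 embryos. Without the 4 libraries that stood apart 23 of 24 were above 0, with a median of 0.74, and 9 had an unadjusted edgeR p under 0.05 in place of 4. Over all genes the number higher at that p also went up in this setting, from 107 of 10794 to 211 of 10635 (1.98%).

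**Figure D1:**
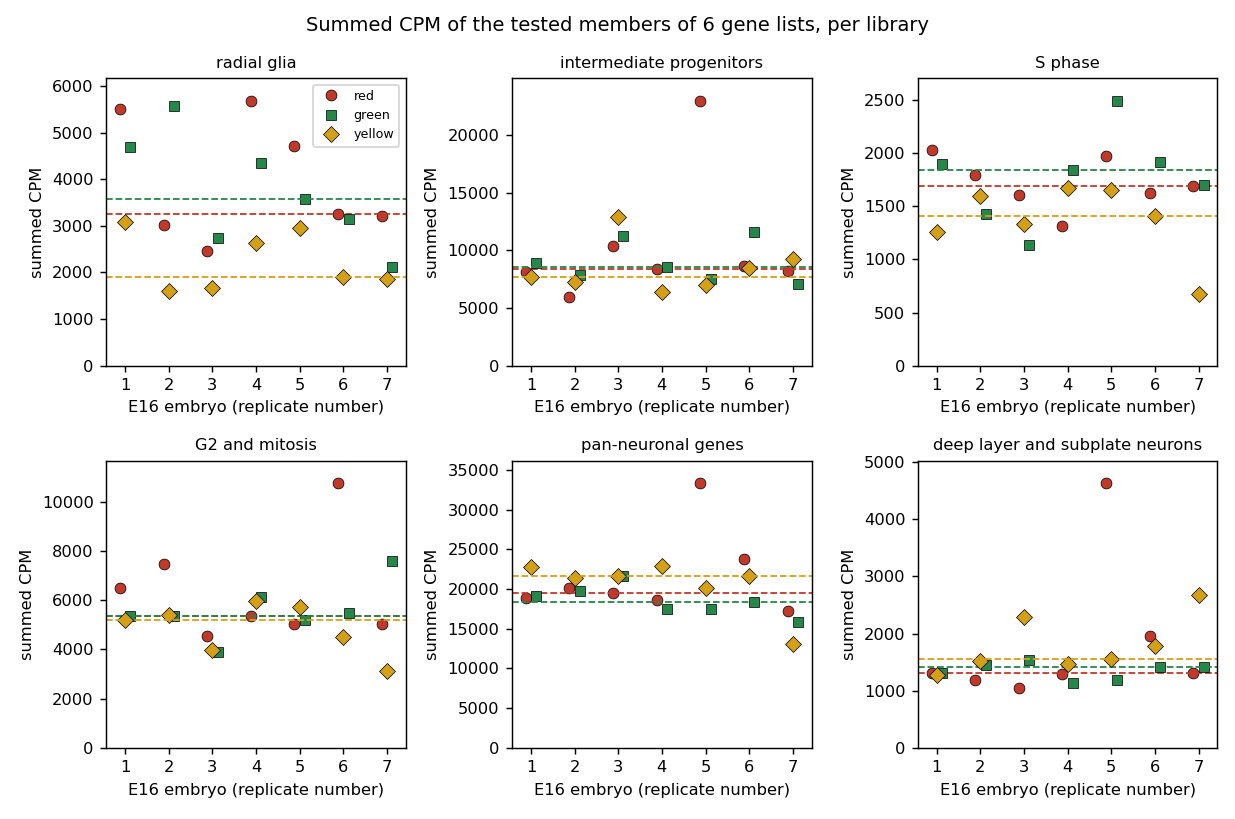
Summed CPM (y axis, from 0) of the tested members of 6 gene lists in each E16 library, by embryo (x axis). Red circles, green squares and yellow diamonds are single libraries and dashed lines the median of each colour. For radial glia, red and green lie above the yellow library in 7 of 7 embryos, and red replicate 5 stands far above the rest in the lists of intermediate progenitors, pan-neuronal genes and deep layer neurons.

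Vimentin (Vim, ENSMUSG00000026728.9, chromosome 2, 13573927 to 13582826), an intermediate filament protein of radial glia, was measured at 67.5 to 244 CPM in red (median 173), 125 to 254 CPM in green (median 186) and 34.9 to 163 CPM in yellow (median 70.5). Both singly coloured libraries exceeded yellow in 6 of 7 embryos. The exception was embryo 5, with 104 CPM in red, 161 CPM in green and 114 CPM in yellow. The log2 fold change of Vim was 1.12 (SE 0.35), with an unadjusted edgeR p of 0.00495 and an adjusted p of 1, and DESeq2 gave an adjusted p of 0.0298. Leaving out the 4 libraries gave 1.23 (SE 0.29).

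Dbi (ENSMUSG00000026385.16, chromosome 1, 120113280 to 120121078) encodes an acyl-CoA binding protein. It was at 345 to 1110 CPM in red (median 490), 323 to 1060 CPM in green (median 601) and 86.6 to 572 CPM in yellow (median 352), and both singly coloured libraries lay above yellow in 7 of 7 embryos. Its log2 fold change was 0.94 (SE 0.25, unadjusted edgeR p 0.00142, adjusted p 1, DESeq2 adjusted p 0.00910). Dbi was at 0.81 (SE 0.21) without the 4 libraries.

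Fabp7, the brain lipid binding protein of radial glia, had medians of 1030 CPM in red, 1350 CPM in green and 750 CPM in yellow, and both colours exceeded yellow in 6 of 7 embryos. Its log2 fold change was 0.87 (SE 0.34). Aldoc, a glycolytic enzyme, had medians of 213, 167 and 34.9 CPM and a log2 fold change of 1.72 (SE 0.72), with both colours above yellow in 5 of 7 embryos. Pax6, a transcription factor of radial glia, had medians of 106, 163 and 37.6 CPM, with both colours above yellow in 5 of 7 embryos and both below it in 1. The Pax6 value was 1.02 (SE 0.60) over all libraries and 1.44 (SE 0.43) without the 4. Sox2, which maintains neural stem cells, was low, with medians of 9.55, 11.8 and 1.89 CPM and a log2 fold change of 2.67 (SE 1.44), and 2 yellow libraries held no Sox2 counts. None of these 4 genes passed the threshold in edgeR (adjusted p 1) or in DESeq2 (adjusted p 0.178 to 0.707).

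**Figure D2:**
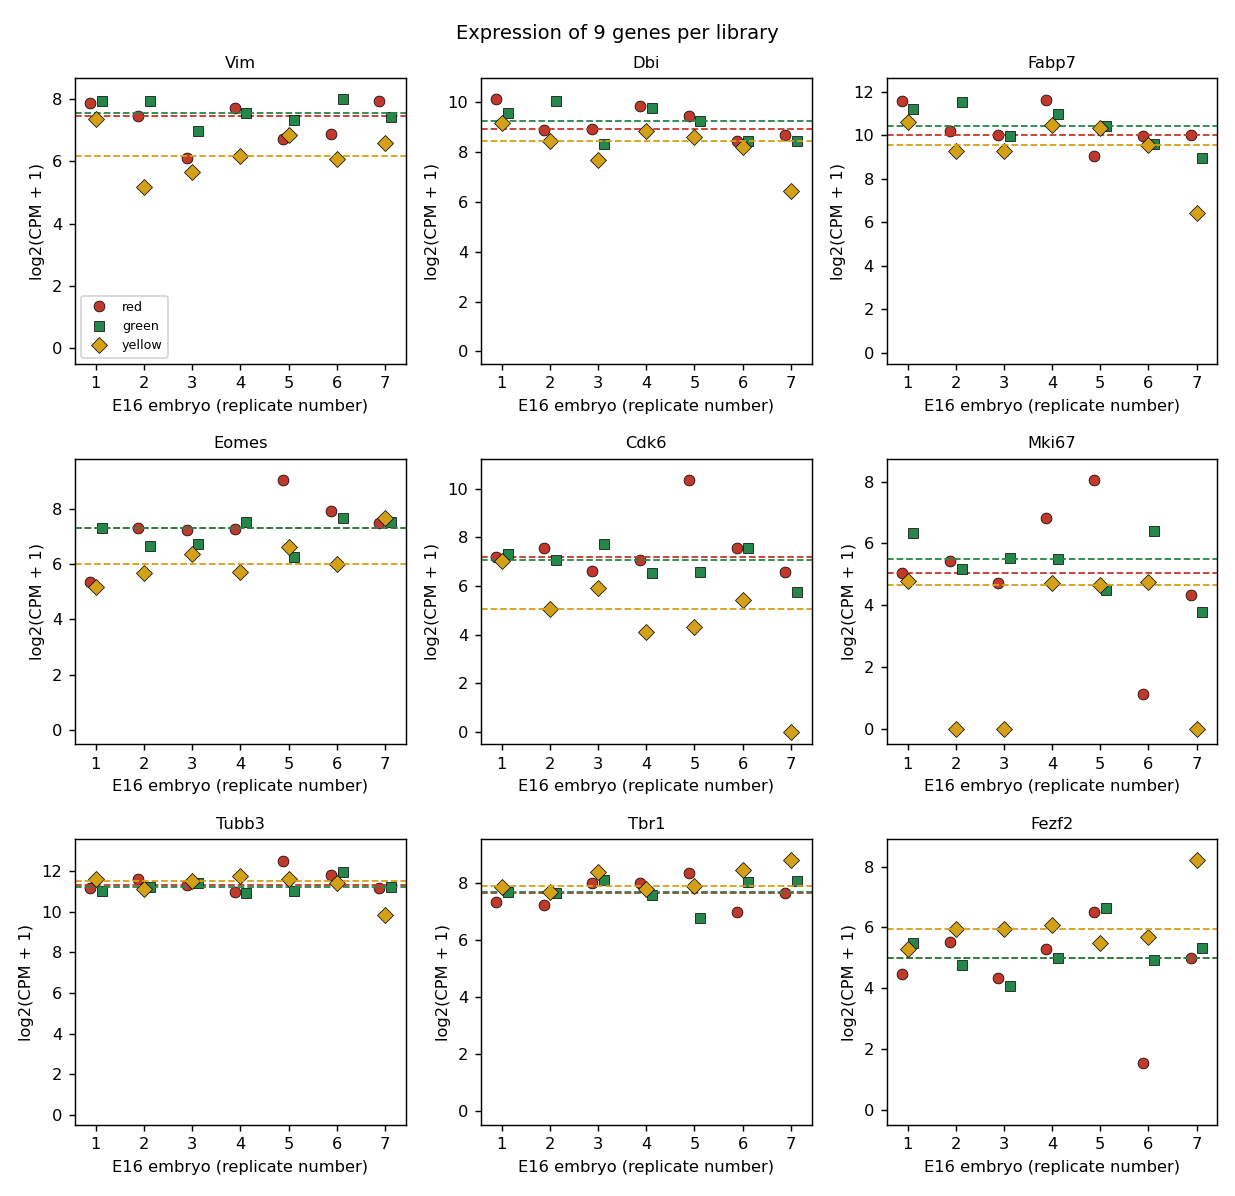
log2(CPM + 1) (y axis) of 9 genes in each E16 library, by embryo (x axis), with the median of each colour as a dashed line. Dbi and Cdk6 are higher in red and in green than in yellow in 7 of 7 embryos and Vim in 6 of 7, Tubb3 shows no order of the colours, and Mki67 holds no counts in 3 yellow libraries.

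Intermediate progenitor and neurogenic genes differed less. Of 25 listed 20 passed the filter, 13 were above 0 (65.0%) and the median log2 fold change was 0.26. Their summed CPM was 5933 to 23028 in red, 7118 to 11596 in green and 6436 to 12898 in yellow, and both colours exceeded yellow in 4 embryos and were below it in 2. Eomes (Tbr2), the transcription factor that defines intermediate progenitors, was at 39.4 to 524 CPM in red (median 157), 76.0 to 200 CPM in green (median 157) and 34.8 to 202 CPM in yellow (median 63.3). In 5 embryos red and green were both above yellow, and in embryo 7 both were below it. The log2 fold change of Eomes was 1.16 (SE 0.43, unadjusted edgeR p 0.0141, adjusted p 1), and 1.10 (SE 0.36) without the 4 libraries. Sstr2, a somatostatin receptor, had a value of 1.86 (SE 0.99) with medians of 38.2, 29.2 and 4.92 CPM, and Hes6, a transcription factor that promotes neurogenesis, of 0.67 (SE 0.55), or 0.16 (SE 0.23) without the 4 libraries. With the 4 libraries left out 15 of the 20 genes were above 0 (median 0.20).

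Cell-cycle genes were mostly measured higher in singly coloured cells in 3 lists: S phase, G2 and mitosis, and G1 regulators with exit genes. Of 44 S phase genes 38 passed the filter and 30 were above 0 (78.9%), with a median of 0.72. Of 55 genes of G2 and mitosis 48 passed and 36 were above 0 (75.0%), with a median of 0.89. Of 26 G1 regulators and cell cycle exit genes 19 passed and 17 were above 0 (89.5%), with a median of 0.39. This list, called G1 regulators below, mixes genes that drive the cycle with genes that end it. Its direction is therefore not a measure of cycling. The members higher in at least 6 of 7 embryos were Cdk6 and Btg1. For Cdkn1c, which is imprinted, the mean of log2 values was below yellow in 6 of 7 embryos. Its fitted value was nevertheless 0.26 (SE 1.27), and both colours were below yellow in only 2 embryos. The mean of its red and green CPM was at a median of 1.97 times yellow, so no direction is read from it. Unadjusted edgeR p-values were under 0.05 for 0 S phase genes, 3 genes of G2 and mitosis and 1 G1 regulator, each higher in singly coloured cells. Without the 4 libraries the medians were 0.43, 0.71 and 0.21, and 3, 8 and 2 genes were under that value, where the share of all genes higher at that p was 1.98% in place of 0.991%. For G1 regulators the number above 0 was then 12 of 19, in place of 17, and without replicates 5, 6 and 7 the list had a median of 0.0087. The median of G2 and mitosis was 0.77 and that of S phase 0.44 without these replicates. Summed CPM, which the most abundant members dominate, differed less. For G2 and mitosis the colour medians were 5340 CPM in red, 5349 CPM in green and 5209 CPM in yellow, and both colours were above yellow in 3 embryos and below it in 1. S phase sums had medians of 1688, 1843 and 1409 CPM, with both colours above yellow in 4 embryos, and G1 regulators of 1701, 1411 and 1271 CPM, with both above in 6.

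Mki67 (ENSMUSG00000031004.8, chromosome 7, 135689784 to 135716361), the Ki-67 proliferation marker, was at 1.20 to 266 CPM in red (median 31.6), 12.6 to 83.1 CPM in green (median 44.5) and 0 to 26.7 CPM in yellow (median 24.1). Replicates 2, 3 and 7 of yellow held no Mki67 counts, and both colours exceeded yellow in 5 of 7 embryos. The fitted log2 fold change was 2.78 (SE 1.13, unadjusted edgeR p 0.0231, adjusted p 1, DESeq2 adjusted p 0.0715). Cdk1, the kinase that drives entry into mitosis, had medians of 37.6, 83.8 and 12.4 CPM and a value of 1.71 (SE 0.96), with both colours above yellow in 5 of 7 embryos. It was 1.67 (SE 0.55) without the 4 libraries. Cdca3, which promotes entry into mitosis, was at 37.1 ± 49.8 CPM in red, 34.4 ± 30.3 CPM in green and 5.65 ± 7.63 CPM in yellow (mean ± SD, n = 7), with no counts in 4 yellow libraries and a log2 fold change of 3.64 (SE 1.59). Aurkb, a kinase of chromosome segregation, had medians of 4.31, 11.8 and 0.997 CPM (2.93, SE 1.37). Top2a, a topoisomerase of dividing cells, was at 1.20 (SE 1.26), or 0.74 (SE 0.86) without the 4 libraries. Yellow libraries were thus at or near the floor of 3 counts for several of these genes, and the size of their fitted fold changes rests on few reads.

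Cdk6 (ENSMUSG00000040274.11, chromosome 5, 3341485 to 3531008), a D-type cyclin partner that acts in G1, was at 95.5 to 1310 CPM in red (median 144), 52.7 to 212 CPM in green (median 133) and 0 to 130 CPM in yellow (median 31.9), with both colours above yellow in 7 of 7 embryos. The size of the difference was uneven, from 0.21 to 6.75 in log2 CPM across embryos. The log2 fold change of Cdk6 was 2.51 (SE 0.73, unadjusted edgeR p 0.00274, adjusted p 1, DESeq2 adjusted p 0.00172) and 1.74 (SE 0.37) without the 4 libraries. Its partner Ccnd2 had a value of 0.82 (SE 0.44) and Cdk4, a kinase of the same step, of 0.39 (SE 0.21), and these were 0.46 (SE 0.38) and 0.22 (SE 0.15) without the 4 libraries. Among the S phase genes Mcm2, a subunit of the replicative helicase, was at 1.27 (SE 0.87), Gmnn, an inhibitor of replication licensing, at 1.69 (SE 1.13), and Pcna, the sliding clamp of DNA polymerase, at 0.35 (SE 0.57) with medians of 64.9, 61.3 and 66.7 CPM. Pcna was at 0.19 (SE 0.32) without the 4 libraries.

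Promoters of 3 of these genes are shown because genes of G2 and mitosis commonly share a pair of short elements, CCAAT and the cell-cycle homology region TTTGAA. The 250 bases before the RefSeq start (GRCm38.p6) are printed from 5′ to 3′, with matches to CCAAT or TTTGAA on either strand in capitals. The window of Mki67 lies at chr7:135716380-135716629 (minus strand), of Cdca3 at chr6:124829926-124830175 (plus strand) and of Cdk1 at chr10:69352913-69353162 (minus strand). In the Gencode coordinates Cdca3 runs from 124829547 to 124833701, so its window lies inside the gene as counted here. Sequence before that Gencode start was not examined.
Mki67: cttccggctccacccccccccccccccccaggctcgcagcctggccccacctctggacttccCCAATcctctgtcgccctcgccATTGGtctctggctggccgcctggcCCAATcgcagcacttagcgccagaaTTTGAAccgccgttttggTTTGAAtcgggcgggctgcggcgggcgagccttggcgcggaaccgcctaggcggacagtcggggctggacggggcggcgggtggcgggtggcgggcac
Cdca3: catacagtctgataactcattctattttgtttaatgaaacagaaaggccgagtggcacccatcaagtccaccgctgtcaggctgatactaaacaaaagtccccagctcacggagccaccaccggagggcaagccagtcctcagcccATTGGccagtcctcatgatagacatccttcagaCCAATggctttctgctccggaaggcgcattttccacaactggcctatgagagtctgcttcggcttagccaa
Cdk1: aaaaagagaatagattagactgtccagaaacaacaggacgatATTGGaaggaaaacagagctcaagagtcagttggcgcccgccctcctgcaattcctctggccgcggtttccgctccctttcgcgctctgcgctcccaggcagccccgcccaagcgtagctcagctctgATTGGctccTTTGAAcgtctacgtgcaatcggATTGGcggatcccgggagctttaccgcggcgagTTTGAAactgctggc

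Of the 48 tested genes of G2 and mitosis 42 had a promoter in the table used, and Aurkb had none. CCAAT was found in 32 (76.2%), TTTGAA in 18 (42.9%) and both in 16 (38.1%), against 34.5%, 16.3% and 5.73% of all 27025 promoters. In the printed windows Mki67 held 3 matches to CCAAT and 2 to TTTGAA, Cdk1 3 and 2, and Cdca3 2 and 0. Among 21 radial glial promoters CCAAT was in 11 (52.4%) and TTTGAA in 1 (4.76%), and among 26 S phase promoters in 20 (76.9%) and 2 (7.69%). These matches describe the sequence only.

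**Figure D3:**
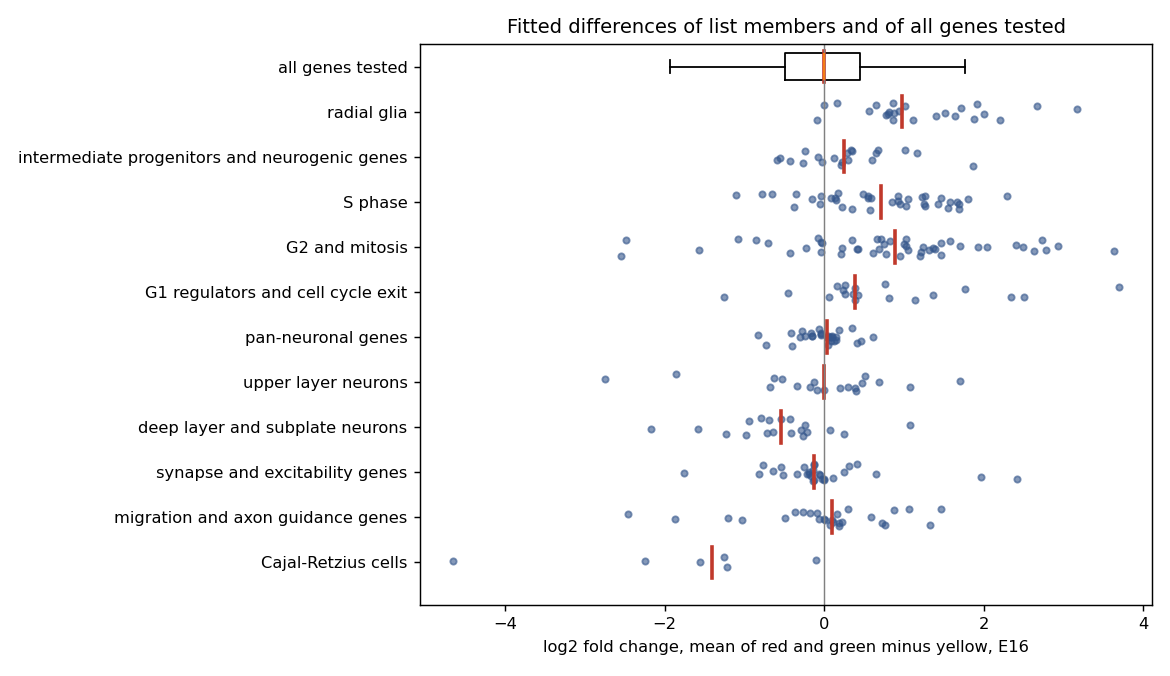
Fitted log2 fold change (x axis, mean of red and green minus yellow) of each tested member of 11 gene lists (blue points), with the list median in red. The box shows the interquartile range of all 10794 genes, with whiskers at percentiles 5 and 95. Members of radial glia lie mostly to the right of 0 (22 of 24) and those of deep layer neurons mostly to the left (16 of 19).

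Red and green were also set against yellow one at a time. These 2 contrasts share the yellow libraries, so they are given side by side only. A colour did not mark 1 pattern of imprinted expression: green had more Cdkn1c than red in replicates 1 to 3 and less in replicates 4 to 7, and paternally expressed Snhg14 showed the reverse. Each contrast therefore pools libraries of both patterns. Of the 24 radial glial genes 21 were above 0 in red (median 0.93) and 24 in green (median 1.31). For G2 and mitosis 39 of 48 genes were above 0 in red (median 0.77) and 36 in green (median 1.01), and for S phase 28 of 38 (median 0.84) and 30 (median 0.87). Over all genes 48.2% were above 0 in red and 54.1% in green. The progenitor and cell-cycle lists thus had positive medians in each colour.

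Fitted values of genes expressed by all neurons were split in direction over all libraries. All 30 listed pan-neuronal genes passed the filter, 16 were above 0 (53.3%), and the median was 0.04. Set against yellow one at a time, the colours differed, with 20 of 30 above 0 in red and 9 of 30 in green. In 6 of the 30 singly coloured cells were lower in at least 6 of 7 embryos (against 7.21% of all genes). In 0 they were higher in as many embryos (against 4.88%). Without the 4 libraries 9 of 30 were above 0 and the median was -0.16, so the direction of the list median depended on them. In that setting 4 of the 30 were lower at an unadjusted edgeR p under 0.05 and 0 higher, where 237 of all 10635 genes were lower. Tubb3, the neuronal beta-tubulin, had medians of 2610 CPM in red, 2370 CPM in green and 2940 CPM in yellow and a log2 fold change of 0.10 (SE 0.22). Neurod6 was at 834, 805 and 796 CPM (0.15, SE 0.21). Both values changed sign without the 4 libraries, to -0.22 (SE 0.16) for Tubb3 and -0.11 (SE 0.14) for Neurod6. Stmn2 (ENSMUSG00000027500.10, chromosome 3, 8509360 to 8561606), a regulator of microtubules in growing axons, was at 1660 to 2690 CPM in red (median 2340), 778 to 2980 CPM in green (median 2180) and 1330 to 3490 CPM in yellow (median 2920). The mean of red and green was below yellow in 7 of 7 embryos, with green below it in 7 and red in 5. The Stmn2 value was -0.31 (SE 0.14, unadjusted edgeR p 0.0464, adjusted p 1). Rtn1, an endoplasmic reticulum protein of neurons, was at -0.41 (SE 0.25).

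Deep layer and subplate neuron genes were measured lower in singly coloured cells. Of 22 listed 19 passed the filter and 16 were below 0, so 15.8% were above 0, with a median of -0.54. In 7 of the 19 genes (against 7.21% of all genes) the mean of red and green was below yellow in at least 6 of 7 embryos. Without the 4 libraries 17 of 19 were below 0 with a median of -0.67. Summed CPM gave a less even picture, with both colours below yellow in 4 embryos and above it in 1. Tbr1 (ENSMUSG00000035033.15, chromosome 2, 61802930 to 61814114), a transcription factor of layer 6 neurons, was at 125 to 330 CPM in red (median 201), 110 to 275 CPM in green (median 208) and 204 to 448 CPM in yellow (median 239). Its mean of log2 values was below yellow in 7 of 7 embryos, and both colours were below it in 5. The fitted value for Tbr1 was -0.42 (SE 0.28, unadjusted edgeR p 0.150). Fezf2, which specifies layer 5 corticospinal neurons, had medians of 30.6, 30.7 and 60.8 CPM and a log2 fold change of -1.23 (SE 0.58). Yellow replicate 7 had the highest Fezf2 level (295 CPM), and without the 4 libraries the value was -0.69 (SE 0.42). Crym, a thyroid hormone binding protein, was at -0.98 (SE 0.57).

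Upper layer genes were evenly split, with 9 of 19 tested genes above 0 (47.4%) and a median of -0.0053, or 10 of 19 and 0.19 without the 4 libraries. Cdh13, a cadherin, was at -0.62 (SE 0.37) with both colours below yellow in 6 of 7 embryos. Of 29 tested genes for synapses and excitability 8 were above 0 (27.6%), with a median of -0.13, and of 27 tested genes for migration and axon guidance 17 (63.0%), with a median of 0.10. These medians were -0.02 and -0.0011 without the 4 libraries. With all libraries no member of these 2 lists had an unadjusted edgeR p under 0.05, and without the 4 libraries Camk2b, a synaptic kinase subunit, did (-1.04, SE 0.28, unadjusted p 0.00219, adjusted p 0.948). The 2 with the lowest p in the guidance list were Epha5 (0.59, SE 0.34), an ephrin receptor, and Sema3c (0.88, SE 0.55), a secreted semaphorin, and each was higher in 6 of 7 embryos. They were at 0.38 (SE 0.25) and 0.26 (SE 0.32) without the 4 libraries.

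Cajal-Retzius neurons line the cortical surface, and 6 of their 10 listed markers passed the filter. All 6 were below 0, with a median of -1.40, and remained so without the 4 libraries (-1.66). Red against yellow had a median of -2.39, and green against yellow of -0.67, with 5 of the 6 below 0 in green. The summed level was 0 to 239 CPM in red (median 21.8), 23.4 to 222 CPM in green (median 118) and 32.0 to 284 CPM in yellow (median 183), and both colours were below yellow in 4 of 7 embryos and above it in 1. Reln, the secreted glycoprotein of these cells, had medians of 12.4, 75.2 and 114 CPM (log2 fold change -1.55, SE 0.92). Apoptosis and p53 target genes were split evenly (10 of 20 above 0, median -0.08). Eda2r, a p53 target, was at 0 in all 7 red libraries, 5 of 7 green ones and 3 of 7 yellow ones. Its 2 highest levels were in green (48.3 and 66.6 CPM), above the highest yellow library (35.2 CPM). The fitted Eda2r value of -4.90 (SE 1.86) rests on 6 libraries with counts. Immediate early and heat shock genes, which respond to tissue dissociation, had a median of -0.02 over 13 tested genes, and 7 mitochondrially encoded genes of -0.06.

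Over all genes, the largest differences were in genes with few reads. Rtn4rl1, a Nogo receptor family member, had the lowest p (log2 fold change -7.28, SE 1.45, edgeR adjusted p 0.808), with counts in 2 red, 1 green and 6 yellow libraries. Better expressed were Usp19, a deubiquitinase (-2.26, SE 0.59), and Bend6, a transcriptional repressor (-1.60, SE 0.44). Bend6 (ENSMUSG00000042182.16, chromosome 1, 33852052 to 33907816) was at 7.56 to 58.7 CPM in red, 16.8 to 96.5 CPM in green and 43.8 to 201 CPM in yellow, and each singly coloured library was below the yellow library of its embryo in 7 of 7. DESeq2 gave an adjusted p of 0.000792 for Bend6 and 0.00514 for Usp19, and edgeR of 1 for both. Among the higher genes the noncoding RNA Pantr1, a neighbour of Pou3f3, had medians of 3450 CPM in red, 2660 CPM in green and 1790 CPM in yellow, with a log2 fold change of 1.02 (SE 0.32) and both colours above yellow in 6 of 7 embryos. The value was 0.58 (SE 0.21) without the 4 libraries. Ston2, an endocytic adaptor, had no counts in any yellow library and in 4 of 7 green libraries. Its highest level (748 CPM) was in red replicate 5, which is among the libraries that stood apart.

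The opposite disomies of red and green made chromosome 7 a special case. Over 795 tested genes of chromosome 7 the median difference was -0.02 and 48.5% were above 0, close to the 50.2% of all genes. For imprinted genes the mean of logarithms and the mean of CPM need not agree, because 1 of the 2 colours lacks the expressed copy. Cdkn1c, a maternally expressed inhibitor of cyclin-dependent kinases, lay between red and green in the yellow library of 5 of 7 embryos. Its mean of red and green CPM was 0.385 to 3.89 times yellow (median 1.97), whereas the mean of their log2 values was below yellow in 6 of 7 embryos and the fitted value was 0.26 (SE 1.27), or -1.41 (SE 1.52) without the 4 libraries. Summed over 9 paternally expressed genes yellow lay between red and green in 7 of 7 embryos, and the summed mean of red and green was 0.608 to 1.31 times yellow (median 0.986). Over 5 genes listed as maternally expressed the ratio was 0.742 to 2.22 (median 1.10), and summed yellow lay between red and green in 3 of 7 embryos. Cd81 made up most of this sum (354 of 615 CPM in yellow, on average). Cd81 and Tssc4 each had yellow in between in 1 of 7 embryos. Whether each listed gene is imprinted in these cells was not tested. Single paternally expressed genes had yellow in between in 2 (Magel2) to 7 embryos.

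The same contrast at E13 was the most similar comparison in the series. It used 15 libraries with at least 40% uniquely aligned reads, 5 of each colour, from 6 embryos of which 4 had all 3 colours, and was fitted together with E16 over 11472 genes. At E13 9 genes (0.0785%) had an adjusted p under 0.05, all lower in singly coloured cells, and 157 (1.37%) were higher and 608 (5.3%) lower at an unadjusted p under 0.05. The difference between the ages passed the threshold for 0 genes (0%) in edgeR and for 219 in DESeq2, with 343 genes higher at E16 (2.99%) and 132 lower (1.15%) at an unadjusted p under 0.05. The ages had no embryos in common. Among the E13 libraries were yellow replicate 2 (9655 genes detected), which the study left out, and green replicate 4 (9610 genes). Without the libraries the study left out at either age, 836 genes had an unadjusted edgeR p under 0.05 for the age difference. With them the number was 475, and the median difference over all genes was 0.16 in place of 0.37. The E13 values themselves were not recomputed without those libraries.

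**Figure D4:**
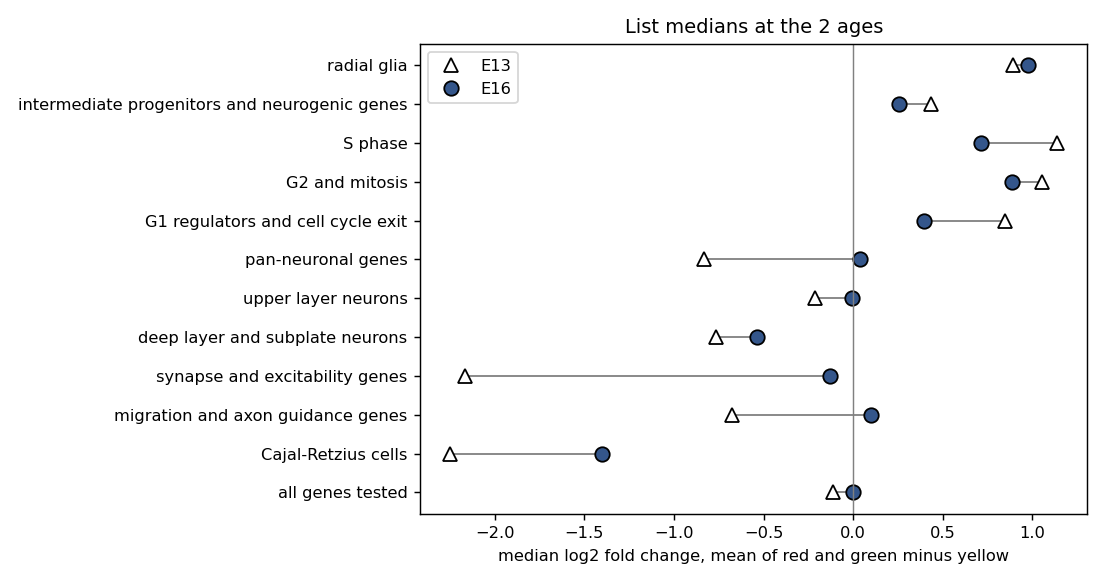
Median log2 fold change (x axis, mean of red and green minus yellow) of 11 gene lists and of all genes at E13 (triangles) and E16 (circles). Progenitor and cell-cycle lists lie to the right of 0 at both ages, and the synapse list lies at -2.17 at E13 and -0.13 at E16.

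Progenitor and cell-cycle lists had positive medians at both ages, and no list was tested as a whole. Radial glial genes were at 0.89 at E13 (23 of 24 above 0) and 0.98 at E16, genes of G2 and mitosis at 1.06 and 0.89, S phase genes at 1.14 and 0.72, G1 regulators at 0.85 and 0.39, and intermediate progenitor genes at 0.43 and 0.26. Vim was at 1.53 (SE 0.35) at E13 and Eomes at 1.45 (SE 0.51), and their differences between ages had unadjusted edgeR p-values of 0.318 and 0.641. Deep layer genes were at -0.77 at E13 and -0.54 at E16, and 0 of 19 had an unadjusted p under 0.05 for the difference between ages. Migration and guidance genes were at -0.68 and 0.10. Pan-neuronal genes were at -0.83 at E13, where 28 of 30 were below 0. Of the 30, 13 were lower at that age at an unadjusted edgeR p under 0.05 (against 5.3% of all genes). For the difference between ages, 8 of the 30 were higher at E16 at an unadjusted edgeR p under 0.05 (against 2.99%). Genes for synapses and excitability were at -2.17 at E13, where 16 of 29 were lower at an unadjusted edgeR p under 0.05 (against 5.3% of all genes). In the difference between ages 10 of the 29 were higher at E16 at an unadjusted edgeR p under 0.05 (against 2.99%). Stmn2 was at -1.17 (SE 0.21, edgeR adjusted p 0.00991) at E13, and its difference between ages had an unadjusted p of 0.00313 and an adjusted p of 0.928.

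**Figure D5:**
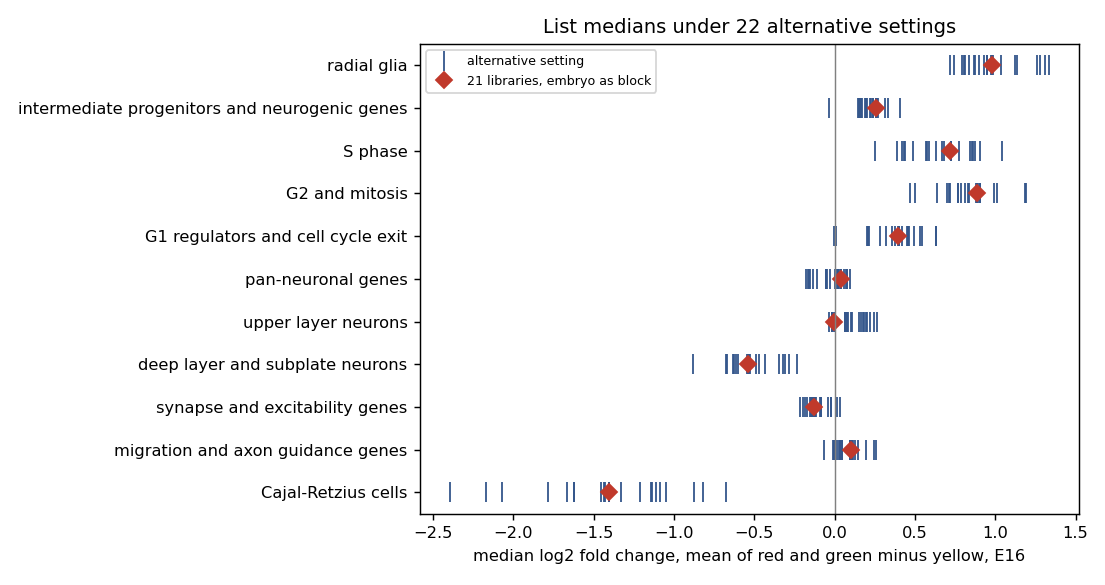
Median log2 fold change (x axis) of 11 gene lists at E16 with all 21 libraries and the embryo as a block (red diamonds) and under 22 alternative settings (blue ticks). Radial glia, S phase and G2 and mitosis stay to the right of 0, deep layer and Cajal-Retzius genes to the left, and the pan-neuronal and upper layer lists fall on both sides.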

How the data were processed

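For each library the authors deposited whole-number read counts per gene, not normalised. Per the labels and the study's methods, technical replicates were combined with SAMtools 1.8, converted with bedtools 2.26.0 and aligned with STAR 2.5.0c to GRCm38 with the Gencode M16 annotation, keeping single alignments. The unstranded column was used, since Smart-Seq2 libraries carry no strand and no molecular identifiers, so overlapping genes cannot be told apart. Of 53379 genes 53274 were matched to Gencode M21 of the same build for symbols and coordinates. Promoters are from RefSeq (GRCm38.p6).

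The age and colour labels define the groups. Single individuals were replicates, so libraries of 1 replicate number were taken as 1 embryo. Over 21 pairs of libraries with 1 number but unlike colours, deviations from the group means correlated at 0.030 on average (-0.0434 to 0.0878), and over other pairs at -0.00351, so this measure shows no pairing. The pairing comes from the study's methods. Xist against Y-linked counts gave the same result in each colour for 7 of 7 embryos. Several embryos shared the same larger signal, so these counts cannot tell them apart and do not establish the pairing.

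Genes with a mean count of at least 10 were tested with edgeR 4.0.16 (R 4.3.3, quasi-likelihood test, TMM) with embryo and colour in the design, for the mean of red and green minus yellow, at a Benjamini-Hochberg adjusted p under 0.05. CPM values are TMM-scaled. Embryo counts of direction use log2 CPM with a prior count of 2. DESeq2 1.42.0, limma 3.58.1 (voom with sample weights), other filters and scaling, thinning to 472924 counts and left-out libraries were alternatives. The test script was checked on simulated counts.

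The comparison and gene lists were chosen with earlier results of these data known, so list counts and medians are descriptions without a test. Genes named were 13 fixed genes, up to 4 per list and 8 per direction over all genes with the smallest p. Results for some named genes are not reported here.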

Additional observations from a re-analysis of the deposited data

Results flagged for a closer look

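Of 44 groups of 7 values examined at E16, 4 held a value far from the others by Dixon's criterion, where chance gives about 1 in 20. All 4 belong to replicate 7. In yellow replicate 7 the number of genes detected was 7858, while yellow replicates 1 to 6 had 11334 to 12368.

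The remaining 3 are differences between the mean of red and green and the yellow library of embryo 7, in log2 CPM. Immediate early and heat shock genes differed by 1.72 on average, against -0.91 to 0.14 in the other embryos. Neurod6 differed by 1.18 (-0.26 to 0.31 elsewhere) and Pcna by 3.62 (-1.22 to 0.79). Over all genes the mean difference in embryo 7 was 1.14, against -0.76 to 0.05 in the other embryos. The part of the low number of genes detected in these differences was not tested.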

How the results depend on the processing

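The 28 results were recomputed under alternatives, which gave 598 values. Of these, 588 kept their direction and side of the threshold, or for a list median moved by less than the SD between embryos. That SD exceeded the median itself for radial glia (0.99 against 0.98) and S phase (1.21 against 0.72), among others. A list median could thus change sign and still be counted among the 588. Of 22 alternatives, 12 kept the sign of the pan-neuronal median and 5 that of the upper layer median. The number of genes called at E16 was 0 in edgeR with all libraries. It was 82 with the DESeq2 Wald test and 2 without a filter on low counts (Pantr1 and Ston2, both higher). It was 0 without the replicate block (482 genes at an unadjusted p under 0.05, in place of 257), and 0 to 0 when each replicate was left out in turn. For the difference between ages the count of 0 became 219 with DESeq2 and 26 without the filter, and it was 0 without the replicate block. With DESeq2, Vim, Dbi, Cdk6, Ak4, Usp19 and Bend6 passed the threshold with like fold changes (1.08, 0.92, 2.53, 5.94, -2.31 and -1.63). The causes of these differences between tools were not tested.

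Alternatives chosen after seeing the data were leaving out replicates 5, 6 and 7, leaving out the 4 libraries that stood apart, and voom with sample weights. Over 22 alternatives the median of radial glia ran from 0.72 to 1.34, of S phase from 0.25 (voom with sample weights) to 1.05, of G2 and mitosis from 0.47 to 1.19 and of deep layer genes from -0.88 to -0.24. Without the replicate block G2 and mitosis was at 0.47, S phase at 0.42, deep layer genes at -0.28 and Cajal-Retzius genes at -0.82. Leaving out replicate 7 gave 0.39 for S phase and -2.17 for Cajal-Retzius genes, and leaving out replicate 3 gave -0.35 for deep layer genes. In replicates 1 to 3 intermediate progenitor genes were at -0.04 and G1 regulators at -0.0014. The pan-neuronal (-0.18 to 0.09), upper layer (-0.04 to 0.27), synapse (-0.21 to 0.03), guidance (-0.07 to 0.26) and apoptosis lists (-0.23 to 0.31) took both signs. The dispersion between libraries and the smallest libraries limit what can be detected for genes near the floor of 3 counts.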

Other observations

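The mean difference over all genes between the singly coloured and the yellow libraries shifted with the libraries that stood apart. It was -0.07 to 0.05 log2 CPM in embryos 1 to 4, and -0.76, -0.56 and 1.14 in embryos 5, 6 and 7. List means were therefore also taken relative to all genes of the same embryo. On that scale radial glial genes were above 0 in 7 of 7 embryos (0.41 to 1.73, mean 1.09 ± 0.58, SD), and so were genes of G2 and mitosis (0.10 to 1.20, mean 0.61 ± 0.42, SD). S phase genes were above 0 in 5 of 7 (mean 0.52 ± 0.68, SD), intermediate progenitor genes in 5 of 7 (0.39 ± 0.64, SD) and deep layer genes in 1 of 7 (-0.54 ± 0.43, SD). Pan-neuronal genes were above 0 in 2 of 7 (-0.03 ± 0.63, SD), with the highest value in embryo 5 (1.07, or 0.30 unscaled). Subtracting the mean over all genes raised every list in embryos 5 and 6 and lowered it in embryo 7. Unscaled list means were above 0 in 6 of 7 embryos for radial glia (-0.29 in embryo 5). They were above 0 in 5 of 7 for G2 and mitosis and in 4 of 7 for S phase.

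Members of the radial glia list higher in singly coloured cells in at least 6 of 7 embryos included Hes1, Notch1 and Dll1 of the Notch pathway. The transcriptional regulators Lhx2 and Id4 were also among them. These 5 genes are named here after their values were seen. Prom1 was lower in at least 6 of 7 embryos.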
